A study of Mus musculus with 12 samples.

Results

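The longest interval of the time course was compared: 3 arrays at 22 h against 3 arrays at 1 h, which are 6 of the 12 arrays in the series. Arrays were chosen by their time label, and each 22 h array was paired with the 1 h array of the same shRNA line. The 22 h group and the 1 h group each held 1 array of PLCy1 sh 14 (called sh14), 1 of PLCy1 sh 133 (sh133) and 1 of scr. All were I/11 cells, a mouse pro-erythroblast line that came from fetal liver of animals lacking p53 and that the labels describe as expanding erythroid progenitors. The sh14 and sh133 lines were stably infected with a pLKO lentivirus for a hairpin against Plcg1, which encodes the signalling enzyme PLCγ1, and the scr line with one for a scrambled hairpin. The vector carries puromycin resistance, and the virus was made in HEK 293T, a human embryonic kidney line. Per the labels, all lines were maintained in serum-free StemPro 34 medium with erythropoietin (EPO), stem cell factor (SCF), dexamethasone and penicillin/streptomycin. What happened at the start of the count of hours is not given in the labels, so the values show what differed between the time points and not what set the change off. No uninfected line and no array of a time before 1 h was among the samples.

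Red cell progenitors are kept dividing by EPO, SCF and glucocorticoids, and as they mature they make heme and globin, load iron, assemble the spectrin-based membrane skeleton and shut down progenitor genes. EPO binds its receptor, which works through the kinase JAK2 and the factor STAT5, while SCF acts through the receptor tyrosine kinase Kit and the RAS-ERK cascade. Cytokine addition to starved cells is known to switch on a short burst of immediate early genes, among them the Fos and Egr families, and of feedback inhibitors such as the dual-specificity phosphatases.

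The deposited log2 signals were made with RMA, and a gene was represented by its brightest probe set, which left 12673 genes to test. Array medians lay between 1.84 and 1.92 on the log2 scale, and arrays correlated at 0.983 to 0.997. The 22 h and 1 h arrays of a line carry the same date string in their titles, so the paired differences do not mix the 2 dates. Erythroid markers were bright, and granulocyte and macrophage, lymphoid and stromal markers were dim: the mean log2 signal over 12 erythroid identity markers was 7.71 to 8.01 at 22 h, against 6.91 to 7.28 at 1 h. Granulocyte and macrophage markers averaged 1.42 to 1.56 at 22 h, against 1.39 to 1.49 at 1 h, lymphoid markers 1.72 to 1.73 against 1.66 to 1.76, and fibroblast and stromal markers 1.54 to 1.59 against 1.55 to 1.58. Of the mast cell and megakaryocyte markers, 8 of 14 and 11 of 16 lay above the highest array median. The same held for 5 of 20 granulocyte and macrophage, 5 of 16 lymphoid and 3 of 13 stromal markers. That median is low, so a value above it does not by itself show that a gene is expressed. The mast cell and megakaryocyte values at both times are given with the mast cell genes below. The labels state no separate cultures, so p-values measure only the spread that line, time and title date leave among these arrays, which may be technical. In RNA from a whole culture, fewer cells of a type and less RNA per cell cannot be told apart. In the values below the lines are always in the order sh14, sh133 and scr.

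Over the time span 2291 of 12673 genes (18.1%) passed limma's test at an adjusted p of 0.05, with 1107 higher at 22 h (8.74%) and 1184 lower (9.34%). Of the called genes, 2257 (17.8% of all tested genes) moved the same way in all 3 lines, which 44.8% of all tested genes did, and 34 did not. Most changes were small: 160 of the higher genes and 180 of the lower genes differed by at least 1 on the log2 scale, and 13 and 24 by at least 2. A difference of 3 or more was seen for 10 lower genes and 0 higher genes. The groups did not overlap for 804 of the genes called higher and 817 of those called lower, where 2722 of all tested genes (21.5%) had groups without overlap. Fitted on the 6 arrays alone, with line as the pairing, the same contrast called 865 genes, of which 863 were among the 2291. Both fits use the same 3 paired differences, so this overlap is no independent support. The count was 731 without the sh133 line (372 higher, 359 lower) and 1264 without scr (661 higher, 603 lower). On the 6 arrays alone 423 genes were higher and 442 lower. List counts given below for these fits belong beside these totals, not beside the 8.74% and 9.34% of the main fit.

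Across genes, the 22 h minus 1 h differences of the 3 lines, which share no array, correlated at 0.61 between sh14 and sh133, 0.67 between sh133 and scr, and 0.41 between sh14 and scr; genes are not independent replicates. The median difference of the genes called higher was 0.59 in sh14, 0.58 in sh133 and 0.52 in scr. For the genes called lower it was -0.48, -0.60 and -0.61. Genes were called on the mean of these same differences, so the shared sign of the medians follows from the choice. Whether the change differed between the hairpin lines and scr was tested as an interaction, in which limma passed 0 of the tested genes, while 1631 (12.9%) had an unadjusted p under 0.05. That test left 2 residual degrees of freedom and had 1 pair of scr arrays, so it cannot show that the lines changed alike. With hours fitted as a slope, 4 genes passed (0.0316%).

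**Figure D1:**
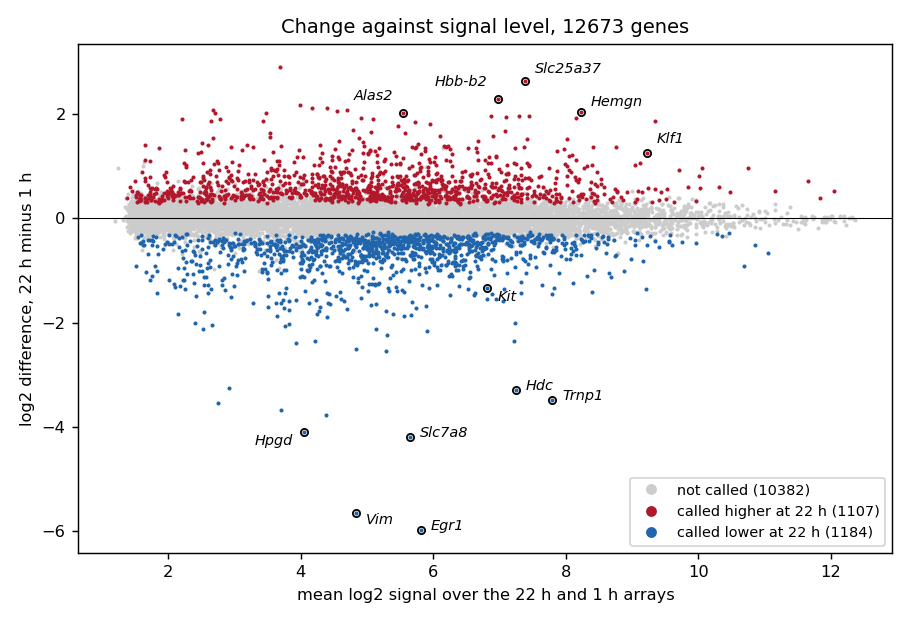
Log2 difference, 22 h minus 1 h, against the mean log2 signal over the 22 h and 1 h arrays for the 12673 tested genes, coloured by call (limma adjusted p of 0.05). The downward changes reach -5.97 for Egr1 and -5.66 for Vim, while the named upward changes end at 2.62 for Slc25a37.

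The genes of largest rise included genes of iron, heme and the red cell membrane. Among the 15 largest rises were 13 annotated genes and 2 predicted ones. The mitochondrial iron importer gene Slc25a37 (mitoferrin-1) had log2 signals of 8.46, 8.72 and 8.90 at 22 h, against 5.69, 5.92 and 6.61 at 1 h. That is a rise of 2.62 ± 0.13 on the log2 scale (SE), or 6.17-fold (limma adjusted p = 8.73e-06), with the lowest 22 h array above the highest 1 h array. Trim10, a hematopoietic RING finger gene, had log2 signals of 5.15, 5.46 and 5.75 at 22 h, against 3.51, 3.40 and 3.09 at 1 h, a rise of 2.12 (adjusted p = 0.000239). Hemgn, which encodes the erythroid nuclear protein hemogen, had 9.01, 9.35 and 9.37 at 22 h, against 7.28, 7.25 and 7.08 at 1 h, a rise of 2.04 (adjusted p = 1.4e-05). In all 13 genes the groups did not overlap, which their choice by size and shared sign on these same arrays favours. Vsir, which encodes the immune checkpoint protein VISTA, rose by 2.07, and Cyp2c29, a cytochrome P450 gene, by 2.02, both with 1 h means under log2 3, where the size is less certain. Cyp2c29 was uneven, with differences of 3.03 in sh14, 1.91 in sh133 and 1.13 in scr.

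**Figure D2:**
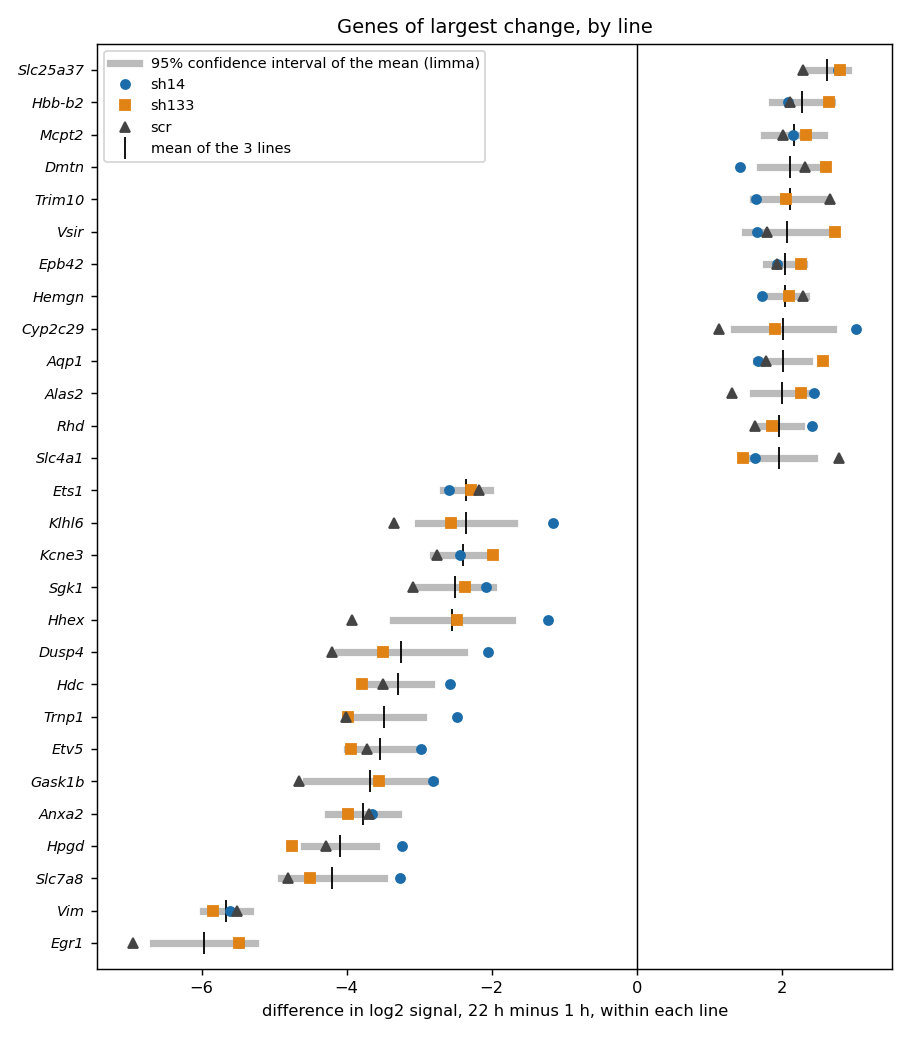
Difference in log2 signal, 22 h minus 1 h, within each line (symbols), its mean over the 3 lines (bar) and limma's 95% confidence interval (grey), for the 13 annotated genes of largest rise and the 15 of largest fall. The 3 symbols of a gene lie on the same side of 0 because genes were chosen to move alike in all lines. Among the falls sh14 changes least for Slc7a8, Hpgd, Anxa2, Gask1b, Etv5, Trnp1, Hdc, Dusp4, Hhex, Sgk1 and Klhl6.

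Over 5 lists pooled (globins, heme, iron, membrane and late enzymes), red cell genes were called higher in 56 of 86 tested members (65.1%, against 8.74% of all genes) and lower in 1, Add2, which encodes a skeleton adducin (-0.48). Their median difference was 0.61 on the log2 scale, against 0.02 over all genes. Of the 16 tested heme synthesis genes 11 rose (68.8%), with a median of 0.85. Alas2, the erythroid enzyme that opens the pathway, had log2 signals of 5.84, 7.47 and 6.34 at 22 h, against 3.39, 5.20 and 5.02 at 1 h, a rise of 2.01 ± 0.18 (SE, adjusted p = 8.98e-05). Its signal was lowest in sh14 at both times, and each line rose. Alad, which joins the product of that step into porphobilinogen, had 9.96, 10.22 and 10.64 at 22 h, against 8.31, 8.53 and 8.42 at 1 h, a rise of 1.86 (adjusted p = 3.93e-05). Rises were also called for the later enzymes Uros (1.68), Ppox (1.39) and Urod (0.92). The same held for Abcb10 (1.35), Abcb6 (1.08) and Tmem14c (1.02), membrane protein genes of the same list.

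Iron genes rose in 7 of 14 tested cases. After Slc25a37 came the transferrin receptor gene Tfrc, with log2 signals of 10.14, 10.60 and 10.86 at 22 h, against 9.53, 9.67 and 9.53 at 1 h, a rise of 0.95 (adjusted p = 0.00327). Smaller rises were called for Ncoa4, the receptor for ferritin breakdown (0.60), Glrx5 and Iscu of iron-sulfur cluster assembly (0.60 and 0.44), the ferritin heavy chain gene Fth1 (0.38) and the iron transporter gene Slc11a2 (0.35). On 6 arrays alone 3 of the 14 were called higher, and 2 without the sh133 line. Of all 12673 genes, those fits called 423 and 372 higher.

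The globin readings were limited by the probe sets. Hbb-b2, an adult beta globin gene, had log2 signals of 8.61, 8.03 and 7.71 at 22 h, against 6.52, 5.39 and 5.59 at 1 h on a probe set that can also bind related transcripts, a rise of 2.28 (adjusted p = 4.83e-05), whereas its other probe set fell by 0.65 (adjusted p = 0.00172), so the direction depends on the probe set. Hbb-bh1, an embryonic beta-like globin gene, rose by 1.09 and the alpha globin gene Hba-a2 by 0.33, both with signals under log2 3 on all 22 h and 1 h arrays. The other adult globin genes were not analysed here.

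The membrane and skeleton list had the most calls: 20 of 26 tested members rose (76.9%), with a median of 0.90. Epb42 encodes protein 4.2, which ties band 3 to the skeleton, and had log2 signals of 5.53, 5.40 and 5.79 at 22 h, against 3.59, 3.14 and 3.86 at 1 h, a rise of 2.05 ± 0.12 (SE, adjusted p = 8.73e-06). Slc4a1, the gene of band 3 itself, the anion exchanger, had 7.72, 8.17 and 8.95 at 22 h, against 6.09, 6.70 and 6.15 at 1 h, a rise of 1.97 (adjusted p = 0.000239) that was 1.63 in sh14, 1.47 in sh133 and 2.80 in scr. Dmtn, which encodes the actin bundler dematin, had 4.50, 5.54 and 5.65 at 22 h, against 3.07, 2.93 and 3.33 at 1 h, a rise of 2.12 (adjusted p = 8.47e-05). The Rh antigen gene Rhd rose by 1.97, the water channel gene Aqp1 by 2.01, the calcium-gated potassium channel gene Kcnn4 by 1.69, the tropomodulin gene Tmod1 by 1.62 and the tetraspanin gene Tspan33 by 1.49. Kcnn4 was uneven, with differences of 0.34 in sh14, 1.71 in sh133 and 3.01 in scr. Of the erythroid enzymes and genes of late remodelling, 15 of 26 rose (57.7%, against 8.74% of all genes), with a median of 0.62. After Trim10 and Hemgn they were led by Ypel4 (1.44), the red cell pyruvate kinase gene Pklr (1.23), the ISG15-conjugating enzyme gene Ube2l6 (1.17), Tlcd4 (1.11), the biliverdin reductase gene Blvrb (1.06) and the peroxiredoxin gene Prdx2 (0.95).

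**Figure D3:**
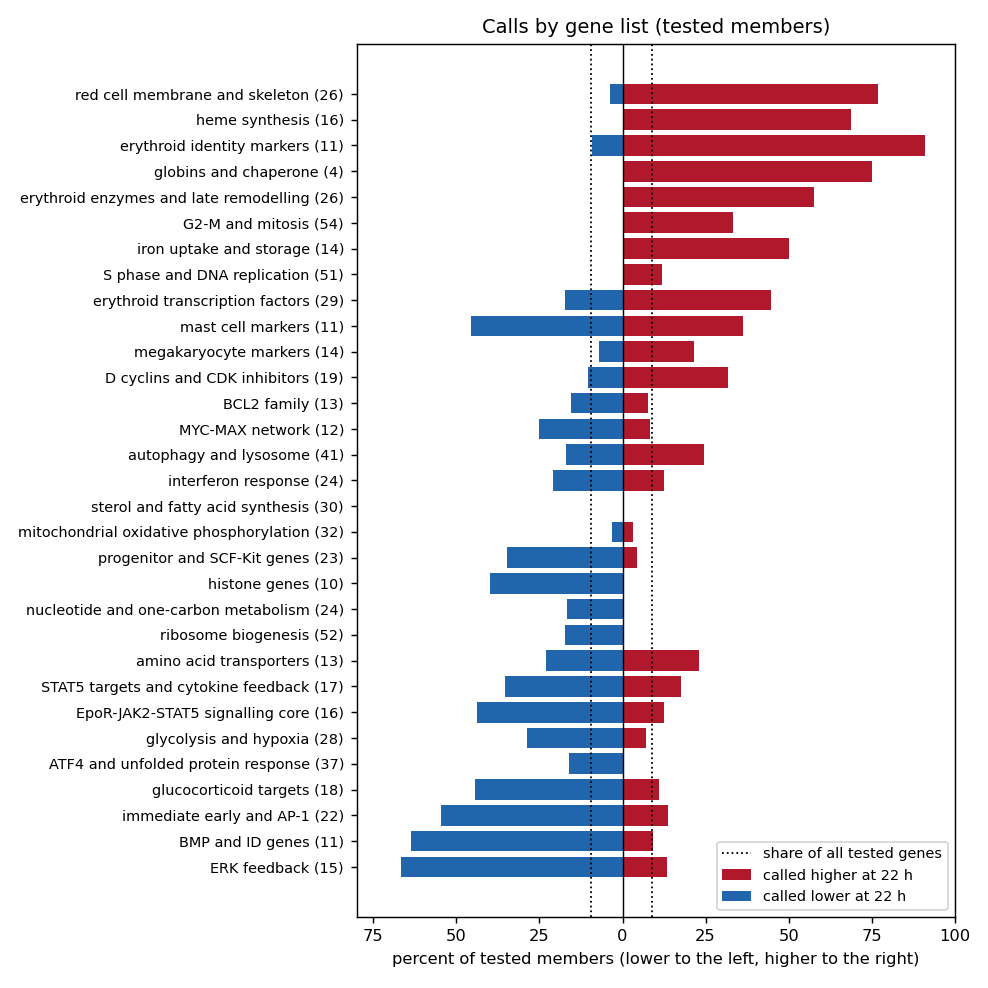
Percent of the tested members of each gene list (number in brackets) called lower (left, blue) or higher (right, red) at 22 h, ordered by the median difference of the list, with the share of all tested genes as dotted lines (9.34% lower, 8.74% higher). Membrane and skeleton genes reach 76.9% higher and ERK feedback genes 66.7% lower, and the list of mitochondrial oxidative phosphorylation has 3.12% in each direction.

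Transcription factors of the erythroid program rose in 13 of 29 tested cases (44.8%, against 8.74% of all genes) and fell in 5 (17.2%, against 9.34%). On the 6 arrays alone 8 rose and 3 fell, where 423 of all 12673 genes rose and 442 fell. Klf1, the erythroid Krüppel-like factor, had log2 signals of 9.58, 9.80 and 10.15 at 22 h, against 8.26, 8.78 and 8.74 at 1 h, a rise of 1.25 (adjusted p = 3.79e-05). Sox6, which enhances red cell maturation, had 6.67, 5.75 and 5.71 at 22 h, against 4.53, 3.97 and 3.94 at 1 h, a rise of 1.89 (adjusted p = 1.12e-05). Gata1, the central erythroid GATA factor, had 8.54, 8.62 and 8.42 at 22 h, against 7.73, 7.80 and 7.83 at 1 h, a rise of 0.74 (adjusted p = 0.000902). In all 3 genes the lowest 22 h array lay above the highest 1 h array. The genes of GATA1's partners rose too, with Zfpm1 (FOG1) at 0.88 and Tal1 at 0.80, as did Klf3 (1.04), Nfe2 (0.95) and Bcl11a, the repressor of embryonic and fetal globin genes (1.00). The falls were in Ets1 (-2.35), Etv6 (-0.79), Myb (-0.79), Ikzf1 (-0.47) and Gata2 (-0.43), factors that act in progenitors and other blood lineages. Gata2, which GATA1 replaces at its sites as red cells mature, passed with an adjusted p of 0.0488, and its groups overlapped.

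Promoters of the genes that moved together are shown from RefSeq (build GRCm38.p6), as 250 bases before to 50 after the annotated start, read on the strand of the gene. They were chosen after the values were seen, as members with a motif match. The motif AGATAA, a form of the GATA site, was searched on both strands and is in capitals. Alas2 lies at chrX:150547167-150547466 (+), Epb42 at chr2:121036828-121037127 (-), Hemgn at chr4:46404134-46404433 (-) and Trim10 at chr17:36869324-36869623 (+). In the other orientation the motif reads TTATCT.
Alas2: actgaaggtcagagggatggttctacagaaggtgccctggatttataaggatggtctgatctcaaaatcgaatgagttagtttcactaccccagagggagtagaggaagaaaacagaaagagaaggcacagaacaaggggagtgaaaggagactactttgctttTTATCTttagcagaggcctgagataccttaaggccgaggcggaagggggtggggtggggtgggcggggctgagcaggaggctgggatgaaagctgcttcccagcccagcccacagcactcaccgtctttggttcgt
Epb42: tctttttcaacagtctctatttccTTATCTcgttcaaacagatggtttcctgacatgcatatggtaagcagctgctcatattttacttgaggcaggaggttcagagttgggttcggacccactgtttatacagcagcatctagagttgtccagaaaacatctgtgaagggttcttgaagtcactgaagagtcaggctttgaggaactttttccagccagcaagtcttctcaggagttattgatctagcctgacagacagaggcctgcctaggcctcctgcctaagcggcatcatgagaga
Hemgn: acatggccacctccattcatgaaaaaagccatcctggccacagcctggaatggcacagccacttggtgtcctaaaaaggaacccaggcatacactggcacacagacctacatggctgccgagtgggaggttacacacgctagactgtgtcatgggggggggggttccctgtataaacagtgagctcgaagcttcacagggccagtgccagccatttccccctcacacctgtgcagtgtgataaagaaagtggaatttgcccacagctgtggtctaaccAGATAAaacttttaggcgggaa
Trim10: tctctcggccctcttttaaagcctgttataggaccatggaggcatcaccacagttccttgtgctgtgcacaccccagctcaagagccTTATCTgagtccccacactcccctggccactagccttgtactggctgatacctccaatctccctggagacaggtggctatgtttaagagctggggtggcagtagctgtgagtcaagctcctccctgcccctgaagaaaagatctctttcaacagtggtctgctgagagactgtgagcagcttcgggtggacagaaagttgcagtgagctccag
Of the 56 red cell genes called higher, 42 had promoters in the RefSeq table, 52 promoters in all, and 11 of these (21.2%) held AGATAA, against 3672 of 32851 promoters (11.2%). The KLF1-type letters CCACACCC were in 1 of the 52 (1.92%), against 3.56% of all promoters. A match describes letters in this window only.

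Genes of the immediate early class and of feedback on ERK signalling were lower at 22 h in most tested members. Of 37 tested members of these 2 lists, 22 were called lower (59.5%, against 9.34% of all genes) and 5 higher, with a median of -0.81. The median of the immediate early list was -0.67 in sh14, -0.10 in sh133 and -0.89 in scr, so the shift of the list was small in sh133, and that of the ERK feedback list was -0.97, -0.92 and -0.94. Egr1, a zinc finger factor induced within minutes by growth factors, had log2 signals of 2.63, 3.31 and 2.55 at 22 h, against 8.11, 8.79 and 9.49 at 1 h. It fell by 5.97 ± 0.31 on the log2 scale (SE, limma adjusted p = 8.73e-06). Its 22 h mean is below log2 3, where the array reads little, so the size is less certain than the direction. By 6 h its difference from 1 h was already -5.53. Among AP-1 genes and other immediate early factors, falls were called for Klf6 (-2.24), Fosl1 (-1.84), Klf10 (-1.57), Atf3 (-1.48), Ier2 (-1.48), Fos (-1.43) and Srf, the factor that drives many of them, named here for its promoter below (-1.25). Ier2 shows the size on a bright probe set, with 5.96, 6.11 and 5.57 at 22 h, against 7.34, 7.18 and 7.55 at 1 h. The 3 members called higher were Btg2, an antiproliferative gene, with log2 signals of 7.23, 7.24 and 6.25 at 22 h, against 5.59, 5.61 and 5.58 at 1 h (a rise of 1.32), Zfp36l1, an mRNA decay factor gene (0.69), and Ier3 (0.41).

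ERK feedback genes are switched on by ERK and damp it, and 10 of 15 fell (66.7%, against 9.34% of all genes). Etv5, an ETS factor gene that reports ERK activity, had log2 signals of 0.73, 1.12 and 1.10 at 22 h, against 3.70, 5.07 and 4.82 at 1 h, and fell by 3.55 (adjusted p = 8.73e-06). Dusp4, an ERK phosphatase gene, had 1.17, 1.28 and 1.46 at 22 h, against 3.21, 4.78 and 5.66 at 1 h, and fell by 3.25 (adjusted p = 0.000395). At 22 h both were below the array medians, so their sizes are less certain than their direction. Spred2, which blocks RAF activation, had 5.18, 4.65 and 4.05 at 22 h, against 6.67, 6.47 and 6.35 at 1 h, and fell by 1.87 (adjusted p = 3.79e-05), well above that range on every array. Falls were also called for Dusp6 (-2.02), Phlda1 (-1.88), Spred1 (-1.58) and Spry2 (-1.49). Dusp1, a phosphatase gene that glucocorticoids induce too, went the other way, with 6.24, 6.89 and 6.17 at 22 h, against 5.01, 5.29 and 5.31 at 1 h, a rise of 1.23 (adjusted p = 0.000498), and Spry1 rose by 0.43.

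Among the promoters of the 22 genes called lower in these lists, 16 genes had an entry, with 19 promoters. The CArG box, the site of the factor SRF, was in 2 of them (10.5%), against 535 of 32851 promoters (1.63%), and those 2 are shown because both hold the box 2 times (capitals). Srf lies at chr17:46556113-46556412 (-) and Dusp5, an ERK phosphatase gene that differed by -0.68, at chr19:53528895-53529194 (+). In Dusp5 the boxes adjoin.
Srf: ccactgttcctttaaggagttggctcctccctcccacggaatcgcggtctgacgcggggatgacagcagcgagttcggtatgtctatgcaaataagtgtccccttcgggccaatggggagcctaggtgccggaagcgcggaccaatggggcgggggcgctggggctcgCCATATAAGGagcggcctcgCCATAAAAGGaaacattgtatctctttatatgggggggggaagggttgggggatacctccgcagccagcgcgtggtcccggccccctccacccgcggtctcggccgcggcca
Dusp5: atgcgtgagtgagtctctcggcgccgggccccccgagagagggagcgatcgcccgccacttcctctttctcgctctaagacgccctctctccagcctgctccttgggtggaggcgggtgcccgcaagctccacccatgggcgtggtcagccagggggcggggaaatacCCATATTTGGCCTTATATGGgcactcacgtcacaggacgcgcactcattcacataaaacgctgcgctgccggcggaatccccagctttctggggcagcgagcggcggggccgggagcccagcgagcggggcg
The letters GCGNGGGCG of the EGR site were in 4 of the 19 promoters (21.1%), against 5.55% of all, and TGANTCA of AP-1 in 0, against 7.81%. TGACGTCA was in 1 (5.26%, against 1.79% of all) and CCGGAAGT in 0 (against 3.89%), all on both strands.

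In the EPO receptor pathway the receptor gene rose while Stat5a, Stat5b and Sh2b3 fell on all 12 arrays. Epor had log2 signals of 6.84, 7.13 and 6.98 at 22 h, against 6.08, 6.52 and 6.55 at 1 h, a rise of 0.60 (adjusted p = 0.00503). Jak2 had 6.59, 6.40 and 6.31 at 22 h, against 6.56, 6.65 and 6.91 at 1 h, and its difference of -0.28 did not pass (adjusted p = 0.127). Stat5a fell by 0.51 (adjusted p = 0.00288) and Stat5b fell by 0.45 (adjusted p = 0.0445). Of the 16 genes of the signalling core, 2 rose (12.5%, against 8.74% of all genes) and 7 fell (43.8%, against 9.34%). On the 6 arrays alone, however, 1 rose and 1 fell, and neither Stat5a nor Stat5b was called. Sh2b3, which encodes the JAK2 brake LNK, had the largest fall (-1.03), with its other probe set at -0.1. The adaptor gene Gab1 had the largest rise (0.70). Feedback and target genes of STAT5 fell in 6 of 17 cases (35.3%) and rose in 3 (17.6%). Cish, the SH2 inhibitor gene that STAT5 induces, had 6.45, 6.41 and 6.33 at 22 h, against 7.44, 7.63 and 8.15 at 1 h, and fell by 1.35 (adjusted p = 0.000329). At 6 h its difference from 1 h was -1.56. Socs1, another JAK inhibitor gene, fell by 0.88, and Cdkn1a, the p21 cell cycle inhibitor gene, fell by 1.40, whereas Tfrc rose as above. Socs3, a further inhibitor, did not pass (-0.66, adjusted p = 0.0842).

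Genes known to be induced by glucocorticoids fell in 8 of 18 cases (44.4%, against 9.34% of all genes) and rose in 2 (11.1%, against 8.74%). Their median was -0.49. Sgk1, a kinase gene, had log2 signals of 3.83, 3.25 and 3.64 at 22 h, against 5.91, 5.62 and 6.72 at 1 h, and fell by 2.51 (adjusted p = 0.000104). Klf9 had 7.73, 7.84 and 7.52 at 22 h, against 8.89, 9.16 and 9.26 at 1 h, and fell by 1.41 (adjusted p = 6.21e-05). Zbtb16, which encodes PLZF (-1.57), Pik3ip1 (-1.56), Rgs2 (-1.25), the clock gene Per1 (-1.01) and Ddit4 (-0.93) were also lower. Genes of BMP signalling fell in 7 of 11 cases (63.6%) and 1 rose (9.09%). The Id2 gene, whose product blocks helix-loop-helix factors, had 2.21, 1.39 and 1.32 at 22 h, against 4.38, 3.30 and 2.67 at 1 h, and fell by 1.81 (adjusted p = 0.000203). Its 22 h signals were all under log2 3, so the size is less certain than the direction. Falls were also called for Id1 (-0.86), the ligand gene Bmp2 (-1.16), the receptor genes Bmpr1a (-1.12) and Bmpr2 (-0.90) and the signal transducer gene Smad1 (-0.91).

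Vim, the gene of the filament protein vimentin, which red cell precursors lose, had the second largest fall of the genes named, with log2 signals of 2.54, 1.39 and 2.07 at 22 h, against 8.15, 7.24 and 7.58 at 1 h. It fell by 5.66 ± 0.15 (SE, adjusted p = 3.1e-08), with differences close in the 3 lines (-5.61, -5.85 and -5.52). Unlike Egr1 it was gradual, at -0.69 by 6 h and -2.21 by 12 h. Its other probe sets differed by -5.62 and -5.33. Kit, the SCF receptor gene, had 6.31, 5.96 and 6.18 at 22 h, against 6.89, 7.67 and 7.88 at 1 h, and fell by 1.33 (adjusted p = 0.00101). The fall was smallest in sh14, where the 1 h signal was lowest. Myb, a factor that keeps progenitors dividing, had 8.78, 8.69 and 8.30 at 22 h, against 9.15, 9.68 and 9.30 at 1 h, and fell by 0.79 (adjusted p = 0.00328). Further genes of the progenitor list that fell were the homeobox gene Hhex (-2.54), Angpt1, which encodes angiopoietin-1 (-2.04), and Tespa1 (-1.78). Of its 23 members 8 were lower (34.8%, against 9.34% of all genes) and 1 was higher (4.35%, against 8.74%), with 5 lower without scr. Hhex differed by -1.23 in sh14, -2.48 in sh133 and -3.92 in scr.

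Among the other genes of largest fall, Slc7a8, an amino acid exchanger gene, had log2 signals of 4.54, 2.92 and 3.18 at 22 h, against 7.81, 7.43 and 8.00 at 1 h, and fell by 4.20 (adjusted p = 3.34e-05). Hpgd, whose enzyme inactivates prostaglandins, had 2.57, 1.45 and 2.01 at 22 h, against 5.81, 6.20 and 6.30 at 1 h, and fell by 4.09 (adjusted p = 8.73e-06). Anxa2, the annexin A2 gene, had 2.82, 2.29 and 2.36 at 22 h, against 6.47, 6.27 and 6.06 at 1 h, and fell by 3.78 (adjusted p = 8.73e-06). In each of these 3 genes every 22 h value lay below every 1 h value. Falls were also called for Trnp1, a nuclear protein gene (-3.49), Gask1b (-3.67), the potassium channel subunit gene Kcne3 (-2.39) and Klhl6 (-2.36). Of the 15 genes of largest fall, 8 had a 22 h mean under log2 3, where the array reads little and a fold is uncertain.

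**Figure D4:**
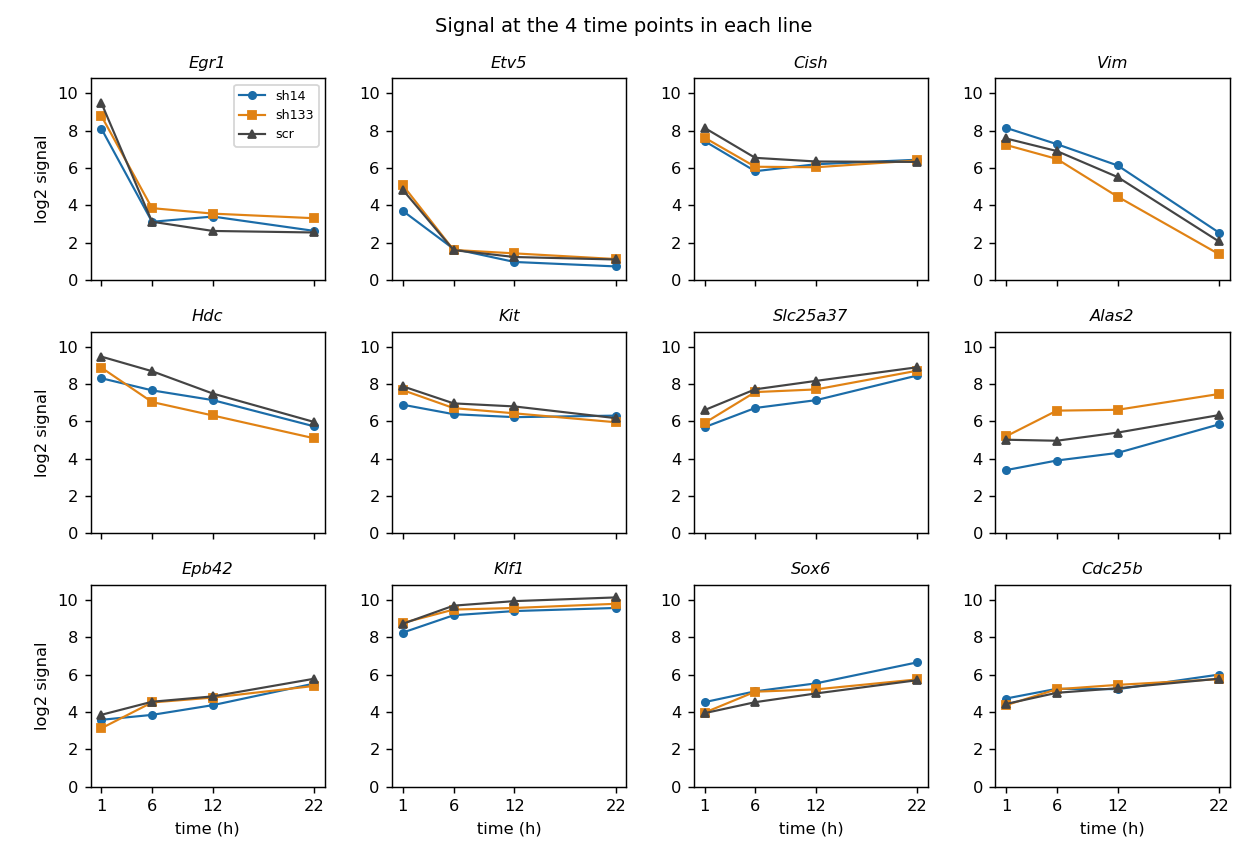
Log2 signal at 1, 6, 12 and 22 h in the lines sh14, sh133 and scr for 12 named genes, with 1 array per point. Egr1 and Cish were near their 22 h level by 6 h and Etv5 had 78.5% of its fall, Vim and Hdc declined through 22 h, and Alas2, Epb42 and Sox6 climbed through 22 h; the 6 h and 12 h arrays of sh133 carry the other title date.

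The 6 h and 12 h arrays, which share the 1 h arrays with the contrast above, show when the difference was present. Of the called genes of at least 1 log2 with the same sign in 3 lines, 107 of 178 lower genes (60.1%) had more than 50% of their 22 h difference at 6 h, and 65 of 159 higher genes (40.9%). The median share at 6 h was 58.3% for lower and 45.6% for higher genes, and at 12 h 70.3% and 64.2%. From the sh14 and scr arrays alone, whose 4 arrays each carry 1 title date, the shares were 57.0% and 44.3% at 6 h. In sh133 the 6 h and 12 h arrays carry another title date than its 1 h and 22 h arrays. With the date term, the step between those pairs of times therefore comes from sh14 and scr only, whereas the 22 h difference averages 3 lines. Shares by list and by gene were not computed on sh14 and scr alone. By list, the lower immediate early genes had 90.4% at 6 h, the lower STAT5 targets 96.6% and the lower glucocorticoid targets 89.5%. The higher heme synthesis genes had 39.6% at 6 h and 65.7% at 12 h, and the higher membrane genes 42.5% and 59.6%. For the erythroid transcription factors it was 74.5% and 71.7% in those called higher and 38.8% and 48.2% in those called lower. Klf1 had 73.3% of its rise at 6 h and Sox6 32.2%, against 17.7% for Alas2, 27.4% for Epb42 and 6.8% for Slc4a1. Limma called 616 genes between 6 h and 1 h and 895 between 12 h and 1 h. No test compared these shares.

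**Figure D5:**
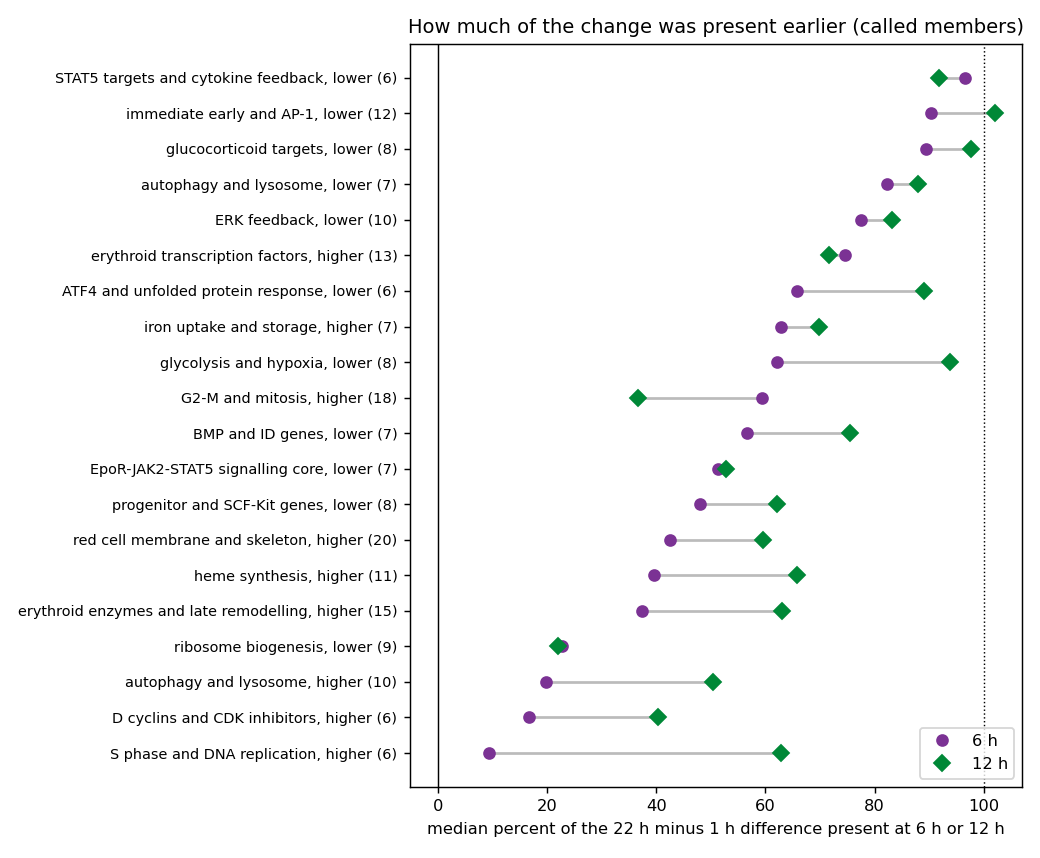
Median percent of the 22 h minus 1 h difference that was present at 6 h (circles) and 12 h (diamonds) over the called members of each list in the direction given (number in brackets, lists with at least 6). Lower STAT5, immediate early and glucocorticoid genes lie at 89.5% to 96.6% at 6 h, and higher S phase genes at 9.36%. The level of 6 h and 12 h against 1 h and 22 h rests on sh14 and scr, because title date takes it up in sh133.

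Part of the mitosis genes rose at 22 h. Of 54 tested genes of G2-M and mitosis, 18 rose (33.3%), 53 had a mean above 0, and the median was 0.32. Cdc25b, the phosphatase gene that starts mitosis, had log2 signals of 6.01, 5.77 and 5.79 at 22 h, against 4.73, 4.37 and 4.44 at 1 h, a rise of 1.34 (adjusted p = 2.08e-05). Aurka, the Aurora A kinase gene, rose by 0.74, Ccnf, a cyclin F gene, by 0.74 and Anln, the anillin gene, by 0.71. The list was uneven between lines, with medians of 0.14 in sh14, 0.32 in sh133 and 0.48 in scr. Its count was 5 on the 6 arrays alone, 2 without sh133, 3 without scr and 22 without sh14. S phase genes rose in 6 of 51 cases (11.8%, near the 8.74% of all genes), with medians of -0.02 in sh14, 0.11 in sh133 and 0.59 in scr. That count was 2 on the 6 arrays alone, and 2 to 13 with 1 array left out, lowest without either scr array and highest without the 1 h array of sh14. Cdc6, a licensing factor gene, rose by 1.19 and differed by 0.65 in sh14, 1.12 in sh133 and 1.80 in scr. Of the D cyclins and inhibitors, Ccnd3, the D cyclin of late red cell divisions, had 7.05, 7.86 and 7.64 at 22 h, against 6.41, 7.10 and 6.49 at 1 h, a rise of 0.85 (adjusted p = 0.000588). Its other probe sets differed by -0.29 and 0.20, and with the mean over probe sets it was not called. The retinoblastoma gene Rb1 rose by 0.89 and the inhibitor gene Cdkn2c by 0.63, whereas Cdkn1a fell as above and Btg1 fell by 0.72.

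Myc, the growth factor-driven regulator of ribosome and nucleotide genes, had log2 signals of 7.58, 7.40 and 7.32 at 22 h, against 8.00, 7.99 and 7.94 at 1 h, and fell by 0.55 (adjusted p = 0.0107). Of 12 genes of its network 3 were lower (25.0%, against 9.34% of all genes), Myc, Mnt (-0.80) and Mlxip (-0.60). The 1 called higher was Mxd1 (0.36), 8.33% against 8.74% of all genes, and the list median was 0.04. Ribosome biogenesis genes were called lower in 9 of 52 cases (17.3%, against 9.34% of all genes), with a median of -0.19. The change was not shared by the lines in size or sign, with list medians of -0.37 in sh14, -0.29 in sh133 and 0.08 in scr, and on the 6 arrays alone limma called 0 members, with 11 at an unadjusted p under 0.05. Heatr1 (-0.56) and Nat10 (-0.53), both of the nucleolus, led. Of nucleotide and one-carbon genes 4 of 24 were lower (16.7%, against 9.34% of all genes), with 2 on the 6 arrays alone and 1 without sh133, led by Shmt1 (-0.95) and Psat1 (-0.70) of serine metabolism. The list of amino acid transporters split, with 3 of 13 tested members lower and 3 higher (23.1% each). Slc7a8, the exchanger gene with the far larger fall given above (-4.20), was not on that list. Slc3a2, the shared heavy chain gene, was at -1.11 and its light chain Slc7a5 at -0.64. Against these, Slc43a1 was at 0.97, the glycine transporter gene Slc6a9 at 0.84 and Slc38a5 at 0.80.

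Of other programs, glycolysis and hypoxia genes were lower in 8 of 28 cases (28.6%, against 9.34% of all genes), with 4 on the 6 arrays alone. They were higher in 2 (7.14%, against 8.74%). The falls included the oxygen sensor gene Egln3 (-0.90), the pyruvate kinase gene Pkm (-0.87) and the hexokinase gene Hk2 (-0.79). With Pklr higher, the pyruvate kinase genes moved in opposite directions. Genes of ATF4 and the unfolded protein response were lower in 6 of 37 cases (16.2%, against 9.34% of all genes). The list medians were -0.57 in sh14, -0.15 in sh133 and 0.03 in scr. Chac1, which degrades glutathione, had log2 signals of 4.10, 4.94 and 4.36 at 22 h, against 7.38, 5.91 and 5.63 at 1 h, and fell by 1.84 (adjusted p = 0.00567), and Herpud1, of protein degradation at the endoplasmic reticulum, fell by 1.29. Autophagy and lysosome genes split into 10 higher (24.4%, against 8.74% of all genes) and 7 lower (17.1%, against 9.34%) of 41, but into 3 and 2 on the 6 arrays alone and 2 and 0 without sh133. Their medians were 0.28 in sh14, 0.05 in sh133 and -0.17 in scr, with Foxo3 at 0.66 and the cathepsin gene Ctsb at 0.64 among the rises. Of 13 BCL2 family genes 1 was higher (7.69%, against 8.74% of all genes) and 2 were lower (15.4%, against 9.34%). Bcl2l11, which encodes the death inducer BIM, had 4.89, 5.07 and 5.47 at 22 h, against 3.68, 3.76 and 4.60 at 1 h, a rise of 1.13 (adjusted p = 0.00017). Mcl1, a survival gene, fell by 1.02 and Bbc3, another death inducer, fell by 0.80. In 32 genes of oxidative phosphorylation 1 rose and 1 fell (3.12% each, under the shares of all genes). In 30 of sterol and fatty acid synthesis 0 passed limma's test, with 4 at an unadjusted p under 0.05. Interferon genes gave 3 higher (12.5%, against 8.74% of all genes) and 5 lower (20.8%, against 9.34%) of 24. On the 6 arrays alone limma called 1 higher and 0 lower, with 5 lower at an unadjusted p under 0.05, and 0 were lower without sh133 or without scr. Histone genes were lower in 4 of 10 cases, led by H1f2 (-1.45), but in 1 on the 6 arrays alone.

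Markers of the mast cell lineage, which shares progenitors and Gata2 with red cells, moved both ways. Of 11 tested 4 were higher (36.4%, against 8.74% of all genes) and 5 lower (45.5%, against 9.34%), and 3 of each on the 6 arrays alone. Hdc, the histamine-forming enzyme gene, had log2 signals of 5.74, 5.10 and 5.97 at 22 h, against 8.31, 8.88 and 9.47 at 1 h, and fell by 3.29 (adjusted p = 1.18e-05). Mcpt2, a mast cell protease gene, had 5.03, 5.11 and 5.10 at 22 h, against 2.87, 2.78 and 3.08 at 1 h, a rise of 2.17 (adjusted p = 6.21e-05). The receptor gene Ms4a2 fell by 1.30 and the protease gene Cpa3 fell by 1.06, both with low signals at 22 h. Averaged over 14 mast cell markers on the array, the log2 signal was 3.08 to 3.69 at 22 h, against 3.09 to 3.72 at 1 h, so the groups overlapped. Of 14 tested megakaryocyte markers 3 were higher (21.4%) and 1 lower (7.14%), with 1 and 0 on the 6 arrays alone. The mean over the 16 megakaryocyte markers on the array was 2.89 to 3.65 at 22 h, against 3.14 to 3.40 at 1 h. Their part in the other changes was not tested.

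Plcg1, the target of the hairpins, did not pass over the time span, with log2 signals of 4.30, 4.39 and 4.31 at 22 h, against 4.16, 4.53 and 4.74 at 1 h and a difference of -0.14 (adjusted p = 0.473, 95% interval -0.42 to 0.13). Its sister gene Plcg2 had 5.40, 5.56 and 4.58 at 22 h, against 5.93, 6.07 and 4.98 at 1 h, and fell by 0.48 (adjusted p = 0.00773) seen in each line. Some genes went in opposite directions in the lines, and the 6 with the widest range are given as a description. Tph1, which encodes the enzyme that starts serotonin synthesis, had 8.28, 6.52 and 5.65 at 22 h, against 4.15, 5.87 and 6.39 at 1 h, with differences of 4.13, 0.64 and -0.73. Aldoc, an aldolase gene, differed by 1.27, -0.01 and -1.96. In both, sh14 was highest in change and scr lowest. Txnip, a thioredoxin inhibitor gene, differed by 0.23, -1.83 and -3.07, and Pf4, a platelet chemokine gene, by 0.64, 2.56 and -0.72. Rgcc differed by -0.16, 1.39 and 2.97, and Trp53inp1 by 1.05, -0.16 and -1.81. The interaction fit had 1 pair of scr arrays and 2 residual degrees of freedom, which limits it for single genes. The interaction of hairpin and time did not pass for any of the 6 (limma adjusted p from 0.278 to 0.379).

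The 28 genes of largest rise or fall were chosen on the 22 h and 1 h arrays, so their calls there are no independent support. Of the 144 genes named here that were called, 115 were also called on the 6 arrays alone, among them all 28. Those that were not were Add2, Aurka, Bbc3, Btg1, Ddit4, Foxo3, Fth1, Gab1, Gata2, H1f2, Hba-a2, Heatr1, Ier3, Ikzf1, Iscu, Kcnn4, Mlxip, Mxd1, Nat10, Ncoa4, Pik3ip1, Plcg2, Rgcc, Slc11a2, Slc7a5, Spry1, Stat5a, Stat5b and Txnip. Without the sh133 line 108 were called, and Ccnf, Cdkn2c, Dusp5, Epor, Glrx5, Klf10, Myb, Myc, Psat1, Slc6a9 and Ube2l6 were further genes that did not pass. Other probe sets above the filter moved less for several named genes, among them Anxa2, at -0.67, Dmtn, at 0.37 and 0.57, and Vsir, at 0.32. For Spry2, Mnt and Nat10, called lower, the other probe set read 0.09, 0.08 and 0.23. Other probe sets ranged from -2.67 to 0.11 for Ets1, from -0.02 to 1.71 for Sox6 and from -0.62 to -0.002 for Spred2.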

How the data were processed

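I/11 cells of 3 shRNA lines were profiled at 1, 6, 12 and 22 h on Affymetrix Mouse Genome 430 2.0 arrays, 1 array per line and time, after whole-transcriptome amplification (NuGEN Ovation Pico) of TRIzol RNA, per the labels' protocols. The deposited values are log2 signals made by the authors with RMA, per the submitters' processing notes, its version not being given in the sources used here. RMA equalises array distributions, so a change in total RNA cannot be read. Of 45101 probe sets, 34958 had 1 gene symbol, 932 several and 9211 none in the platform annotation, and 34754 matched RefSeq (GRCm38.p6), from which the promoters came. The brightest probe set stood for each of 18194 genes, and 12673 genes were tested after those under log2 1.45 were dropped, a limit at the 40th percentile over probe sets.

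limma 3.58.1 in R 4.3.3 fitted line, time and title date to all 12 arrays, with 5 residual and 5.18 prior degrees of freedom, empirical Bayes moderation and Benjamini-Hochberg adjustment. The contrast was 22 h minus 1 h, which equals the mean of the 3 paired differences. The median standard error was 0.11 on the log2 scale, and the number of arrays limits the precision. Lines pair the arrays by label: deviations of same-line 22 h and 1 h arrays from the group means correlated at 0.50 in sh14, 0.56 in sh133 and 0.33 in scr. Replicate numbers given in accession order pair nothing. Simulated data for this contrast had 12673 genes, with 200 changed per draw and 3 draws. The share of planted changes called there was 79.3% for a fold of 1.5, 98.7% for 2 and 100% for 3, with 6% of the calls false. In the simulation every line was given an equal change, whereas the measured differences varied between the lines. These shares therefore describe the simulation only, and the false share among the real calls was not tested. Figures were drawn with matplotlib 3.10.9 in Python 3.11.15.

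The members and gene lists were chosen with earlier results of these data known. Named genes were a set of EPO, Kit and erythroid genes, the 15 genes of largest change in each direction that reached log2 3 in the brighter group and moved alike in all lines (predicted genes counted only), up to 8 members of each list by size, and 6 genes that differed most between lines. Add2, Dusp5, Etv6, Ier3, Ikzf1, Spry1, Srf and Zfp36l1 fall outside that rule and were chosen after their values were seen. Alternatives changed the arrays, the date term, the filter, the probe set rule, the scaling and the test, or left out an array or a line.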

Additional observations from a re-analysis of the deposited data

How the results depend on the processing

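On the 6 arrays at 22 h and 1 h with line as the pair (replicate block), limma called 865 genes, 423 higher and 442 lower, and 252, 120 and 132 without the pairing, against 2291, 1107 and 1184 on all 12 arrays. Fewer arrays leave fewer degrees of freedom. Tested against a fold of 1.2, 654 genes passed, 317 higher and 337 lower. Without the sh133 line the counts were 731, 372 and 359, and without scr 1264, 661 and 603. Leaving out 1 array gave 1146 to 2273 called genes, 570 to 1035 higher and 576 to 1238 lower, and 1146 was reached without either sh133 array. The share called higher moved most between scalings with arrays centred on their medians, at 52.1% against 48.3%. The interaction of hairpin and time gave 4 genes as a slope on log2 hours, against 0. Without the title date term, an alternative chosen after seeing the data, 6 h against 1 h gave 946 genes, against 616; the cause was not tested.

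For the 151 genes named with values, 2664 alternative results kept direction and side of the threshold, 317 fell short of it, 7 newly passed and 12 reversed. Of the 144 called, 51 were called under every alternative, 17 of them among the 28 largest changes, with a gene that an alternative dropped counted as not called. Hbb-b2 read -0.65 and Socs3 0.04 with probe sets ending _x_at or _s_at left out, where another probe set stands for the gene. Tph1 read -0.044 without sh14, and Pf4 -0.039 without sh133. Without the scr line Aldoc read 0.63 and Trp53inp1 0.44. With 1 array left out, Pf4 ranged over -0.039 to 1.40, Aldoc over -0.85 to 0.47 and Trp53inp1 over -0.89 to 0.33. Of the named genes called, 77 had another probe set above the filter, 10 had one of opposite sign, and 1, Hbb-b2, by at least 0.3. The number of arrays and dim signals near background limit the sizes given.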
